A study of Mus musculus with 24 samples.

Results

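Glucocorticoid signalling in the gastrocnemius muscle of burned mice was followed through 10 genes, namely the receptor Nr3c1, the hormone-activating enzyme Hsd11b1 and 8 genes that the hormone is known to induce (Fkbp5, Tsc22d3, Klf9, Klf15, Zbtb16, Sgk1, Cebpd and Errfi1). The genes were chosen by name, with earlier results of these data known, and all 10 were among the 12408 genes tested of the 55401 in the counts. Poly-A RNA was sequenced from 12 male C57BL/6 mice, with 3 mice in each of 4 groups, adult burn (AB) and adult sham (AS), and young burn (YB) and young sham (YS). The procedure was done at 5 weeks of age in the young and at 11 weeks in the adult groups. Burn mice received a full-thickness scald over 25% of the body surface on the back and belly, with lactated Ringer's solution into the peritoneum. Sham mice had the same isoflurane anaesthesia and buprenorphine analgesia, but neither the scald nor the fluid, so that scald and resuscitation cannot be told apart. All mice were killed 24 h later, and the muscle lay away from the wound. No source used here gives circulating corticosterone or the time of day at harvest.

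Glucocorticoids reach muscle as corticosterone in mice, and 11-beta-hydroxysteroid dehydrogenase inside the cell returns the inactive 11-dehydrocorticosterone to the active hormone. The bound receptor leaves its chaperones, enters the nucleus and binds palindromic response elements in DNA. In skeletal muscle the hormone is known for raising protein breakdown and amino acid use and for lowering insulin action, and its release increases after burns and other trauma.

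Reads per library summed to between 4392605 and 5688512, and the counts of the 10 genes ran from 54 to 3431 per library. Levels are given as normalized CPM, the counts relative to library size after scaling by edgeR's TMM method. Young burn replicate 2 stood apart from the other libraries. Its scaling factor was 1.19 against 0.825 to 1.05 in the others, and its mean correlation with its own group over genes was 0.941 against 0.960 to 0.982. The tests of the 10 genes are therefore given with all 12 libraries and with 11, without this mouse, since the study also left 1 young burn animal out of a figure. Other values are those of 12 libraries unless 11 are named. Markers of muscle fibres summed to between 93544 and 193020 CPM per library. The sum was 138275 to 193020 CPM in YS, above every mouse of the other groups. It was 93544 to 123477 CPM in YB, 110915 to 123696 in AS and 111360 to 131295 in AB. In RNA of whole muscle, fewer cells of a type and less RNA per cell cannot be told apart.

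The promoters of these genes were searched for the exact letters of the response element. RefSeq start sites on GRCm38.p6 gave 15 windows of 250 bases before a start for 7 of the 10 genes, and Nr3c1, Zbtb16 and Cebpd were not matched. The full palindrome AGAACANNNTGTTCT, which reads alike on both strands, was found in 3 of 32851 windows of all genes (0.00913%), and 1 of these belonged to Sgk1. The half-site AGAACA, on either strand and counted also inside the full palindrome, occurred in 5284 of all windows (16.1%). It occurred in 4 of the 15 windows, which belonged to Sgk1 and Tsc22d3. The windows below show the full palindrome in Sgk1, a half-site in Tsc22d3 and a window with neither in Klf9, the gene with the highest level. They run 5′ to 3′ on the strand of the gene, capitals mark half-sites, and the Tsc22d3 window stops before the first annotated exon.
Sgk1, chr10:21993640-21993889, plus strand: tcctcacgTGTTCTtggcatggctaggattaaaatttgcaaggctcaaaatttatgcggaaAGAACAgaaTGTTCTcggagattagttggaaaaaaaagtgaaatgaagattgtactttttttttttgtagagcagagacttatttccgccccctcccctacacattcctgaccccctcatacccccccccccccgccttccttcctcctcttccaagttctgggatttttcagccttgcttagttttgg
Tsc22d3, chrX:140600660-140600772, minus strand: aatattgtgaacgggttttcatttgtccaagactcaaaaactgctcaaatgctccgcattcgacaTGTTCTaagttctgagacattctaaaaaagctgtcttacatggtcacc
Klf9, chr19:23140976-23141225, plus strand: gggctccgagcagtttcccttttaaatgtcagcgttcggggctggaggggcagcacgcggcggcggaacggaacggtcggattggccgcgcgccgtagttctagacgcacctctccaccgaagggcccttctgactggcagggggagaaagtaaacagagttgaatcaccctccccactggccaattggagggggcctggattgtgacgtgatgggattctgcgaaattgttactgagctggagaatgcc
The palindrome of Sgk1 began 189 bases before one of the annotated start sites of the gene. A match of letters is a description of the window and not a measured binding site, and no match says only that these letters are not in the window.

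Levels between genes were compared per kilobase of exon, as the mean CPM per kb over the 12 libraries. Klf9 had 90.8 CPM per kb, Tsc22d3 had 61.8 and Sgk1 had 39.7. Nr3c1 followed with 18.6 CPM per kb, Errfi1 with 14.2, Klf15 with 13.3 and Cebpd with 12.02. Hsd11b1 had 7.27 CPM per kb, Fkbp5 6.77 and Zbtb16 4.41. All 10 genes were thus detected in every mouse, the receptor and the enzyme included.

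Nr3c1 encodes the glucocorticoid receptor and lies on chromosome 18. Its level was 146, 161 and 158 CPM in the AS mice and 126, 121 and 129 CPM in the AB mice, numbered as replicates 1 to 3. The AB mice were all below the AS mice. In YS it was 152, 166 and 153 CPM, and in YB 162, 89.8 and 148 CPM. The lowest value of all 12 was that of young burn replicate 2, and the other YB mice lay within or next to the YS values.

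Hsd11b1, the reductase that makes active hormone inside cells, lies on chromosome 1 at 193221634 to 193264075 of GRCm38, on the minus strand. Its level was 38.4, 36.3 and 35.3 CPM in AB and 35.8, 27.2 and 36.3 CPM in AS. It was 24.7, 27.9 and 23.9 CPM in YB and 30.2, 31.2 and 23.6 CPM in YS. All 3 YB mice lay below all 3 AB mice, while the sham groups overlapped.

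Fkbp5 encodes a co-chaperone that lowers the affinity of the receptor for its hormone and is itself induced by it, and it lies on chromosome 17 at 28399094 to 28517527, minus strand. Its level was 80.8, 123 and 109 CPM in AB and 98.2, 54.8 and 36.1 CPM in AS. In YB it was 32.3, 64.6 and 51.7 CPM, and in YS 64.5, 15.4 and 38.3 CPM. The sham mice were widely spread, with a coefficient of variation of 50.6% in AS and 62.4% in YS against 20.5% in AB.

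Tsc22d3 encodes the leucine zipper protein GILZ, a mediator of anti-inflammatory hormone action, and lies on chromosome X at 140539528 to 140600659, minus strand. Its level was 323, 350 and 356 CPM in AB and 297, 234 and 251 CPM in AS. In YB it was 298, 189 and 254 CPM, and in YS 279, 184 and 202 CPM. The 3 AB mice were above all other mice.

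Klf9 and Klf15 encode zinc finger transcription factors. Klf9 lies on chromosome 19 at 23141226 to 23168134, plus strand, and had 422, 620 and 548 CPM in AB and 387, 453 and 438 CPM in AS. In YB it had 347, 327 and 299 CPM and in YS 576, 353 and 477 CPM. The YB mice were below the mice of every other group, and young burn replicate 2 lay between the other YB mice. Klf15, which drives breakdown of branched-chain amino acids in muscle, lies on chromosome 6 at 90462576 to 90475238, plus strand. Its group means were 46.0 ± 5.25 CPM in AB, 40.4 ± 8.17 in AS, 36.2 ± 8.67 in YB and 26.3 ± 10.0 in YS (SD, n = 3 each), and all groups overlapped except AB and YS.

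Zbtb16 encodes the zinc finger protein PLZF and lies on chromosome 9 at 48654297 to 48836222, minus strand. Its level was 39.4, 42.3 and 37.1 CPM in AB and 15.9, 19.5 and 23.8 CPM in AS. In YB it was 13.98, 16.8 and 22.1 CPM, and in YS 21.7, 10.9 and 15.8 CPM. The AB mice stood above all 9 other mice, whose groups overlapped each other.

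Cebpd encodes a transcription factor of acute-phase and atrophy programmes that interleukin-6 signalling through STAT3 also induces. It lies on chromosome 16 at 15887286 to 15891031, plus strand, and 562 bases of its exon are shared with an exon of Spidr on the other strand, a gene with 125 counts over the 12 libraries. Cebpd had 48.0, 101 and 78.5 CPM in AB and 24.2, 32.4 and 34.6 CPM in AS. In YB it had 29.7, 63.2 and 35.8 CPM, and in YS 48.2, 18.2 and 26.8 CPM. All AB mice were above all AS mice, and young burn replicate 2 was the only YB mouse inside the AB range.

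Errfi1 encodes an inhibitor of EGF receptor signalling and lies on chromosome 4 at 150853919 to 150868892, plus strand. Its level was 56.2, 58.0 and 54.2 CPM in AB and 41.4, 42.1 and 35.6 CPM in AS. In YB it was 50.3, 95.5 and 55.4 CPM, and in YS 52.6, 32.6 and 35.4 CPM. The highest of all 12 values was again that of young burn replicate 2, and the AB mice did not overlap the AS mice. Sgk1, a kinase that regulates ion transport and fibre size, lies on chromosome 10 at 21882184 to 21999903, plus strand. Its means were 222 ± 49.1 CPM in AB, 236 ± 89.0 in AS, 136 ± 64.0 in YB and 186 ± 20.2 in YS (SD, n = 3 each). Young burn replicate 2, at 64.5 CPM, had the lowest Sgk1 level of the 12 mice.

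**Figure D1:**
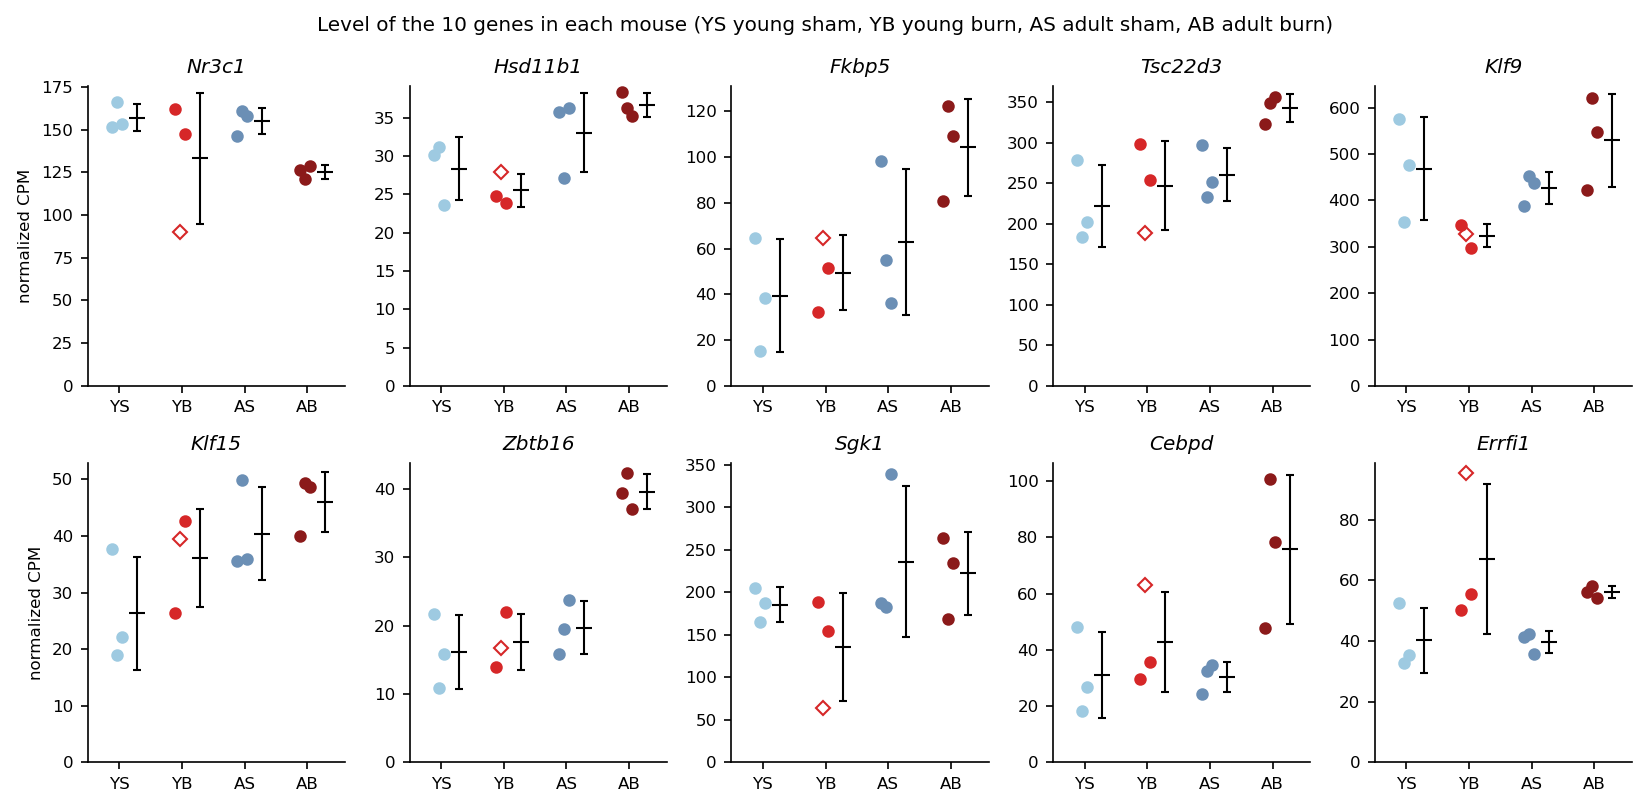
Each panel plots 1 of the 10 genes, with normalized CPM on the vertical axis and the groups YS, YB, AS and AB on the horizontal axis. Points are mice, the open diamond is young burn replicate 2, and the horizontal and vertical lines are the mean and SD of the 3 mice. The AB mice stand above all other mice for Zbtb16 and Tsc22d3, and the YB mice below all others for Klf9.

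Within the YS group the 8 induced genes ranked the mice in the same order, and how many of all genes had this order was not counted. Young sham replicate 1 held the highest value of the 3 YS mice for 8 of 8 genes and young sham replicate 2 the lowest for 8 of 8. The AS mice were mixed, each with the highest value for 2 or 3 genes and the lowest for 2 to 4. Summed over the 8 genes, the level was 1285 CPM in young sham replicate 1 and 798 CPM in young sham replicate 2, which was the lowest of the 12 sums, against 860 to 986 CPM in YB, 1068 to 1194 CPM in AS and 1273 to 1511 CPM in AB. Klf9, Tsc22d3 and Sgk1 make up most of this sum.

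Whether burn moved these genes in adult muscle was asked by comparing AB with AS. Of the 8 induced genes, 7 had a positive log2 fold change, and the largest were those of Cebpd at 1.32 ± 0.36 (log2 fold change ± standard error), Zbtb16 at 1.01 ± 0.22 and Fkbp5 at 0.72 ± 0.42. Zbtb16 averaged 39.6 ± 2.59 CPM in AB and 19.7 ± 3.92 CPM in AS, and Cebpd 75.8 ± 26.6 and 30.4 ± 5.47 CPM (SD, n = 3 each). Nr3c1 had −0.31 ± 0.17 and Hsd11b1 0.15 ± 0.14. In the study's RNA quality report every AB ratio of ribosomal RNAs was at or below every AS ratio. The part of RNA quality in the values of AB against AS was not tested.

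None of the 10 genes passed the test in AB against AS with 12 libraries, at an adjusted p under 0.05 in edgeR's quasi-likelihood test with Benjamini-Hochberg adjustment, where 0.00806% of all genes passed. The unadjusted p was under 0.05 for 4 of them, as for 6.87% of all genes. DESeq2 called 1, Zbtb16, and 0.0887% of all genes. With 11 libraries 2 genes rose, against 0.561% of all genes called higher. These were Zbtb16 at a log2 fold change of 1.00 (edgeR adjusted p = 0.0283, against 0.480 with 12 libraries) and Cebpd at 1.31 (adjusted p = 0.0443, against 0.555). The left-out library belongs to neither group compared, and it changed the standard error, from 0.22 to 0.20 for Zbtb16 and from 0.36 to 0.29 for Cebpd, more than the fold change. When other single libraries were left out, neither gene passed, with an adjusted p of up to 0.995 for both, while the log2 fold change stayed between 0.87 and 1.16 for Zbtb16 and between 1.06 and 1.56 for Cebpd. Groups did not overlap for 4 genes that were higher in AB (Tsc22d3, Zbtb16, Cebpd and Errfi1), where this held for 10.3% of all genes, and for Nr3c1, which was lower in AB, where it held for 9.74%.

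In young muscle, YB was compared with YS. Errfi1 had a log2 fold change of 0.74 ± 0.23 with 12 libraries and 0.41 ± 0.16 with 11, and Klf9 had −0.53 ± 0.18 and −0.53 ± 0.19. Zbtb16 had 0.13 ± 0.24 and Fkbp5 0.34 ± 0.44 with 12 libraries. Cebpd had 0.47 ± 0.36 with 12 libraries and 0.10 ± 0.34 with 11.

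None of the 10 genes passed in YB against YS in edgeR, with 12 libraries (0.0645% of all genes called) or with 11 (0.664%). With 12 libraries Klf9 and Errfi1 had an unadjusted p under 0.05, as had 20.3% of all genes, and DESeq2 called none of the 10 and 3.48% of all genes. Errfi1 passed without young burn replicate 1 (log2 fold change 0.91, edgeR adjusted p = 0.0374), so that the group was young burn replicates 2 and 3. Klf9 was the only one of the 10 whose groups did not overlap, and it was lower in YB. This held for 11.2% of all genes.

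Over both ages, with age in the model, Cebpd had a log2 fold change of 0.90 ± 0.27 for burn, Errfi1 0.62 ± 0.16 and Zbtb16 0.60 ± 0.19. None passed with 12 libraries in edgeR, where 0.717% of all genes did, and 4 had an unadjusted p under 0.05, as had 19.5% of all genes. DESeq2 called Cebpd and Errfi1, and 3.09% of all genes. With 11 libraries Errfi1 rose by 0.46 ± 0.11 (edgeR adjusted p = 0.0388, against 0.0803 with 12), where 1.46% of all genes were called higher. It also passed without young burn replicate 1, at 0.69 (adjusted p = 0.0386).

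The interaction asks whether the burn effect differed between ages and is the young effect minus the adult effect. Zbtb16 had −0.88 ± 0.32, Klf9 −0.85 ± 0.25 and Cebpd −0.84 ± 0.51 with 12 libraries, and −0.83 ± 0.32, −0.84 ± 0.25 and −1.22 ± 0.44 with 11. None of the 10 passed in edgeR with either set, where 0% and 0.0949% of all genes did. An unadjusted p under 0.05 was found for 2 with 12 libraries and 4 with 11, beside 7.2% and 11.1% of all genes. DESeq2 called none of the 10 with 12 libraries (0.00806% of all genes) and Klf9 with 11 (adjusted p = 0.0394, 0.419% of all genes). A difference between the ages in the burn effect was therefore not shown in edgeR for any of these genes.

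**Figure D2:**
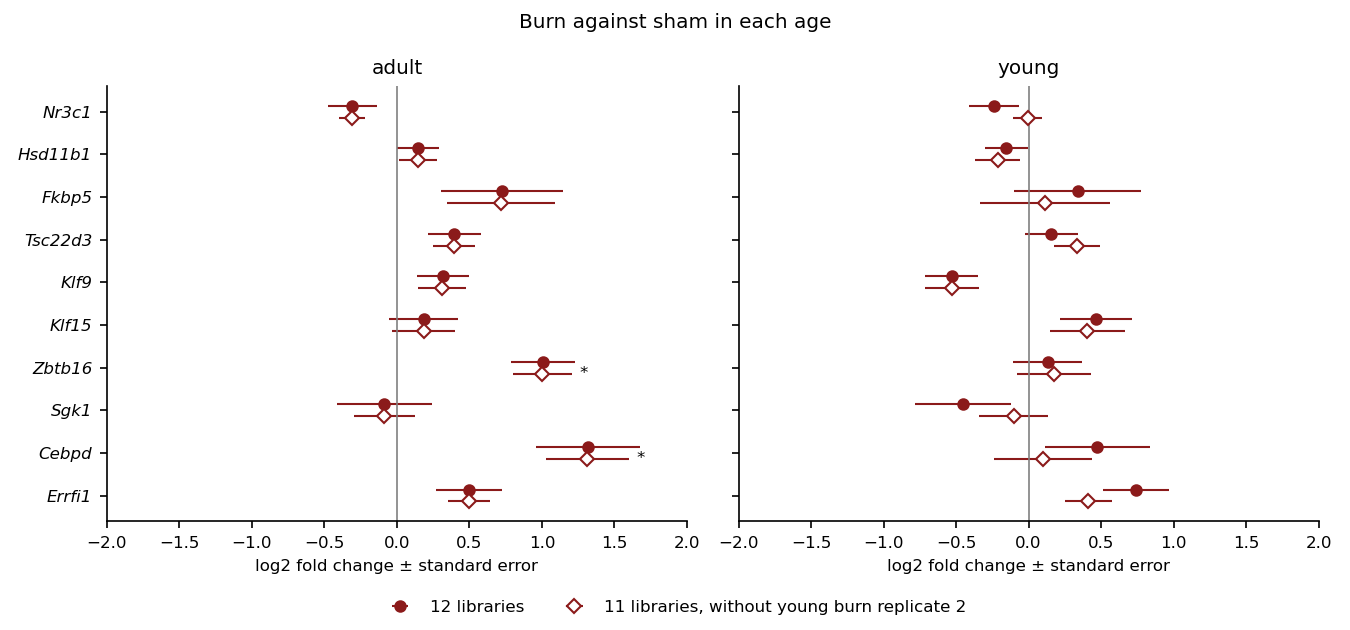
The horizontal axis is the log2 fold change of burn against sham in adult mice (left) and in young mice (right) for each of the 10 genes. Filled points are the fits with 12 libraries, open diamonds those with 11, bars are standard errors, and a star marks an adjusted p under 0.05. Stars stand only at Zbtb16 and Cebpd in adult mice with 11 libraries.

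Between the sham groups, which by design differ in age, the 8 induced genes were split, with 5 negative and 3 positive values of YS against AS. In the study's RNA quality report no sample had an integrity number. Every YS ratio of ribosomal RNAs was at or below every AS ratio, as was every AB ratio. Fkbp5 had a log2 fold change of −0.69 ± 0.44 and Klf15 −0.62 ± 0.25. Nr3c1 had 0.02 ± 0.17, with means of 157 ± 7.80 CPM in YS and 155 ± 7.67 CPM in AS (SD, n = 3 each). None of the 10 passed with 12 libraries, where 3.76% of all genes did, nor with 11, where 11.8% did, and each time 1, Klf15, had an unadjusted p under 0.05, beside 20.2% and 27.8% of all genes. DESeq2 called none of the 10 with 12 libraries and 5.38% of all genes. Without young sham replicate 1, the mouse with high induced genes, Klf15 passed at −0.97 (edgeR adjusted p = 0.0386). That mouse had the highest Klf15 level of YS, so leaving it out lowers the YS mean, and the call is not independent support.

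YB was then compared with AB. With 12 libraries Zbtb16, Klf9 and Hsd11b1 were lower in YB than in AB, so that 3 of 10 genes passed, where 10.8% of all genes passed and 4.84% were called lower. Zbtb16 averaged 17.6 ± 4.11 CPM in YB against 39.6 ± 2.59 in AB, and its log2 fold change was −1.17 ± 0.22 (edgeR adjusted p = 0.00728). Klf9 averaged 324 ± 24.4 against 530 ± 100 CPM, with −0.71 ± 0.18 (adjusted p = 0.0253). Hsd11b1 averaged 25.5 ± 2.13 against 36.7 ± 1.59 CPM, with −0.52 ± 0.14 (adjusted p = 0.0353).

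The transcription factor Zbtb16 passed with each of the 12 libraries left out in turn, with an adjusted p between 0.00389 and 0.0339. The call of Klf9 was lost without adult burn replicate 2 (adjusted p = 0.106), adult burn replicate 3 (0.0877) or young burn replicate 3 (0.0846). That of Hsd11b1 was lost without adult burn replicate 1 (0.0897), 2 (0.0925) or 3 (0.0880), adult sham replicate 3 (0.0604), young burn replicate 1 (0.0816) or young burn replicate 3 (0.107). Hsd11b1 and Klf9 also did not pass when only the burn groups were fitted, with adjusted p = 0.0778 and 0.0684. With library size alone as the scaling Hsd11b1 did not pass, at −0.41 (adjusted p = 0.175). DESeq2 called the same 3 genes and 11.3% of all genes.

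With 11 libraries 5 of the 10 genes were called lower in YB than in AB, where 9.54% of all genes were, and 1 was called higher, where 11.2% were. Besides Zbtb16 at −1.14 (edgeR adjusted p = 0.00389), Hsd11b1 at −0.59 (0.0138) and Klf9 at −0.71 (0.0160), these were Cebpd at −1.20 (0.0171), Fkbp5 at −1.31 (0.0449) and, in the other direction, Nr3c1 at 0.31 (0.0413). Nr3c1 averaged 155 ± 10.3 CPM (SD, n = 2) in the remaining YB mice and 125 ± 4.06 CPM (SD, n = 3) in AB. Its value was 0.09 ± 0.17 with 12 libraries and −0.08 without young burn replicate 1. Tsc22d3, Klf15, Sgk1 and Errfi1 did not pass with either set, and the value of Errfi1 changed from 0.26 ± 0.22 to −0.08 ± 0.16. With 12 libraries 5 genes lay lower in every YB mouse than in any AB mouse (Hsd11b1, Fkbp5, Tsc22d3, Klf9 and Zbtb16), where this held for 14.6% of all genes. The comparisons share groups, since the AB mice also stand in AB against AS, and the values are set side by side without a test of their likeness.

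**Figure D3:**
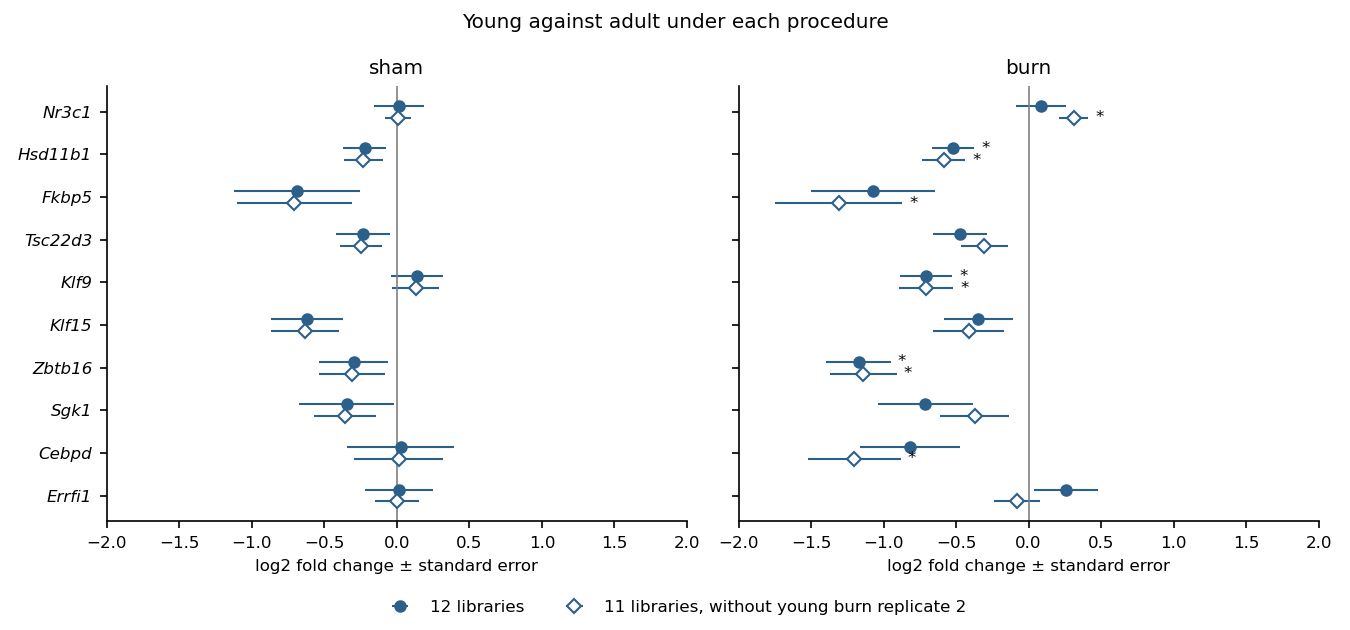
The horizontal axis is the log2 fold change of young against adult mice under sham (left) and under burn (right) for each of the 10 genes. Symbols and bars are as in the plot of burn against sham. Under sham no gene carries a star, and under burn Hsd11b1, Klf9 and Zbtb16 carry one in both sets of libraries.

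Other genes of the pathway were taken from lists written with earlier results of these data known. Among 12 chaperones and cofactors of the receptor, which hold it ready for the hormone or carry its signal to transcription, none was called with 12 libraries in any comparison, with a median log2 fold change of 0.05 in AB against AS and −0.03 in YB against AB. The median over all genes tested was 0.00 and 0.02. At an unadjusted p under 0.05, 1 of the 12 was higher in AB against AS, as were 405 of all 12408 genes. In YB against AB 1 was higher and 3 were lower, as were 1907 and 1621 of all genes. With 11 libraries the median in YB against AB was −0.27, and 6 of the 12 were lower and none higher at an unadjusted p under 0.05. The share of all genes at that p is not given here for 11 libraries. Of the 6, Stip1, the adaptor between the chaperones HSP70 and HSP90, was called lower in YB than in AB (−0.49, edgeR adjusted p = 0.0219), where 9.54% of all genes were called lower.

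Of 3 genes of hormone metabolism and of the second corticosteroid receptor, Hsd11b2 did not pass the filter on low counts. H6pd, which makes the NADPH that Hsd11b1 uses, averaged 66.6 ± 10.6 CPM in YB and 105 ± 7.75 CPM in AB (SD, n = 3 each). In the sham groups it averaged 70.4 ± 15.9 CPM in YS and 89.2 ± 4.89 CPM in AS, and was not called. It was lower in YB than in AB, at −0.65 ± 0.16 (edgeR adjusted p = 0.0237) with 12 libraries and −0.52 ± 0.15 (adjusted p = 0.0253) with 11. Of all genes, 4.84% and 9.54% were called lower in YB than in AB with these sets. Nr3c2, the mineralocorticoid receptor, had −0.36 ± 0.25 with 12 libraries and −0.08 ± 0.20 with 11, and did not pass.

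Among 20 further genes known to be induced by glucocorticoids, 18 had a positive value in AB against AS, with a median log2 fold change of 0.58, where 6214 of the 12408 genes tested were positive. None was called with 12 libraries, 9 were higher with an unadjusted p under 0.05, as were 405 of all genes, and with 11 libraries 2 rose. These were Trim63, the ubiquitin ligase MuRF1 of muscle atrophy, at 1.15 (edgeR adjusted p = 0.0259) and Mt1, which encodes a metallothionein, at 1.13 (adjusted p = 0.0184). Trim63 averaged 728 ± 186 CPM in AB and 328 ± 72.5 CPM in AS, and Mt1 53.6 ± 15.2 and 24.4 ± 4.22 CPM (SD, n = 3 each). Fbxo32, the other ubiquitin ligase of atrophy, had 1180 ± 386 and 469 ± 185 CPM and did not pass, at 1.33 ± 0.58 with 12 libraries. In YB against YS the median of the 20 was 0.18 with 12 libraries and 0.04 with 11, and none was called. Over both ages Mt1 rose by 1.15 with 12 libraries (adjusted p = 0.0497) and by 0.83 with 11 (adjusted p = 0.0179).

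In YB against AB, 16 of these 20 genes had a negative value, as had 5999 of all 12408, and the median was −0.34. With 11 libraries 18 were negative, and the median was −0.63. Trim63 (−1.27, edgeR adjusted p = 0.0355), Pdk4 (−0.91, adjusted p = 0.0457), Lpin1 (−0.78, adjusted p = 0.00713) and Pik3r1 (−0.58, adjusted p = 0.0266) were lower in YB. Pdk4 encodes the kinase that shuts off pyruvate dehydrogenase, Lpin1 a phosphatidic acid phosphatase and Pik3r1 a regulatory subunit of the insulin-responsive kinase PI3K. Angptl4, an inhibitor of lipoprotein lipase, was higher in YB with 12 libraries (1.29, adjusted p = 0.0372) but not called with 11. With 11 libraries 7 of the 20 were called lower, where 9.54% of all genes were, among them Fbxo32 at −2.54 (adjusted p = 0.00204) and Arrdc2 at −2.06 (adjusted p = 0.0360). Fbxo32 ranged from 130 to 945 CPM over the YB mice.

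Several of these 20 genes also differed between the sham groups. In YS against AS with 12 libraries Angptl4 was higher (2.47, edgeR adjusted p = 0.00604), and Irs2, an adaptor of the insulin receptor, and Lpin1 were lower (−1.04 and −0.61, adjusted p = 0.0117 and 0.0373). With 11 libraries Fbxo32 was lower as well (−1.91, adjusted p = 0.00635). The median of the 20 was 0.02, against 0.01 over all genes tested.

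Of 5 amino acid genes under KLF15, 4 were tested. Gpt2, a mitochondrial alanine aminotransferase, was lower in YB than in AB at −0.87 (edgeR adjusted p = 0.00658), with 270 ± 13.3 against 495 ± 87.9 CPM (SD, n = 3 each). None was called in the other comparisons, where 1 of the 4 had an unadjusted p under 0.05 in AB against AS, in YS against AS and in the interaction.

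Because interleukin-6 also induces Cebpd, 8 genes of that response were read beside it. Stat3, the transcription factor of the pathway, rose in YB against YS by 0.84 (edgeR adjusted p = 0.0277) and over both ages by 0.60 (adjusted p = 0.0241), and it was higher in YB than in AB by 0.46 (adjusted p = 0.0300). It averaged 77.4 ± 9.08 CPM in YB and 43.2 ± 3.28 in YS, against 56.2 ± 4.43 in AB and 43.7 ± 3.22 in AS (SD, n = 3 each). The other 7 genes were not called with 12 libraries. Cebpd averaged 42.9 ± 17.8 CPM in YB and 31.1 ± 15.4 in YS, against 75.8 ± 26.6 in AB and 30.4 ± 5.47 in AS. The summed level of the 8 genes was 178 to 299 CPM in YB and 186 to 215 CPM in AB. It was highest in young burn replicate 2, which also had the highest Cebpd level of the YB mice. The AB mice had another order. Adult burn replicate 1 had the highest sum of its group, 215 CPM, and the lowest Cebpd level, 48.0 CPM. Adult burn replicate 2 had the lowest sum of its group, 186 CPM, and the highest Cebpd level, 101 CPM. The part of interleukin-6 in the values of Cebpd was not tested.

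**Figure D4:**
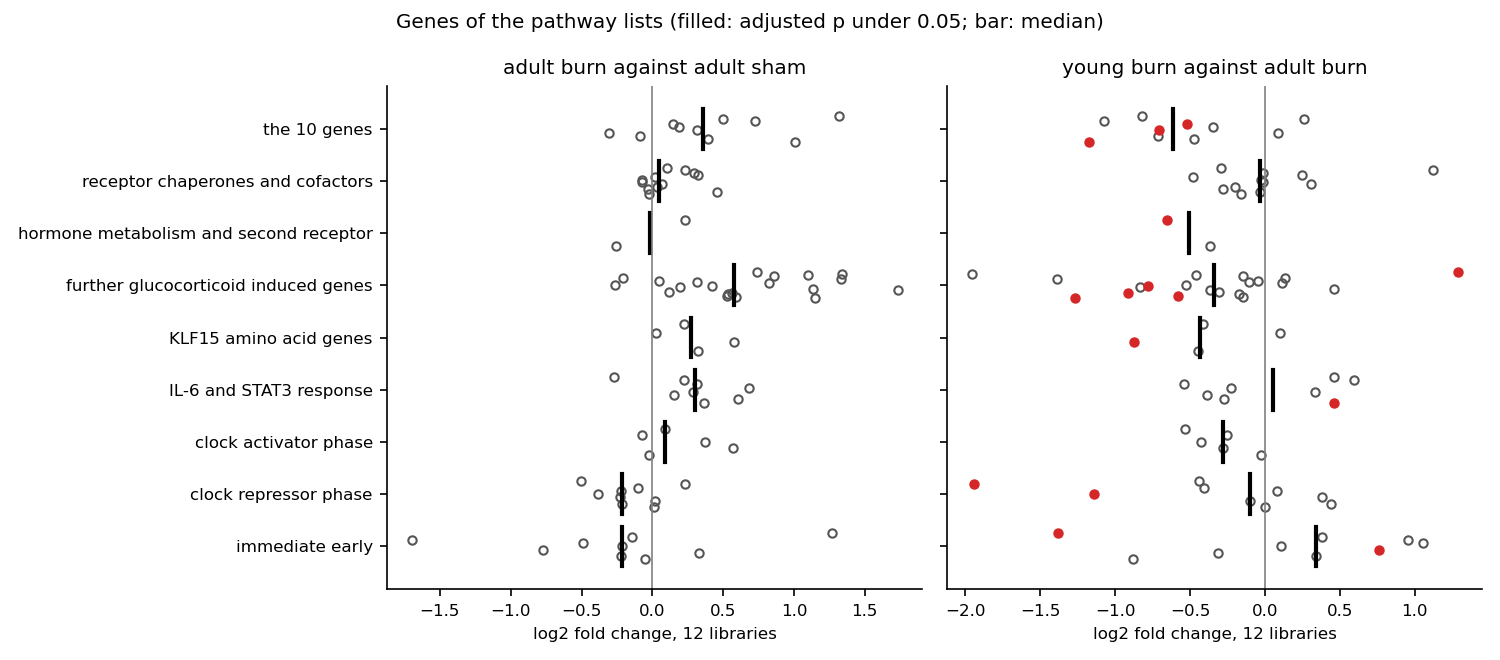
Each circle is a gene of a list, placed by its log2 fold change with 12 libraries in AB against AS (left) and YB against AB (right). Filled circles have an adjusted p under 0.05 and bars are list medians. The 20 further induced genes have medians of 0.58 and −0.34, and all filled circles stand on the right.

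Several of these genes, Klf9 and Klf15 among them, also vary over the day in many tissues, so clock genes were read beside them. Of 9 genes of the repressor phase, 4 were positive and 5 negative in YB against AB, with a median log2 fold change of −0.10. Nr1d1 (−1.14, edgeR adjusted p = 0.0179) and Ciart (−1.95, adjusted p = 0.0187) were called lower in YB than in AB. With 11 libraries Nr1d2 was called higher (0.51, adjusted p = 0.0123). Hlf was lower in YS than in AS (−1.07, adjusted p = 0.0173). So were Nr1d1 (−0.73, adjusted p = 0.0350) and Ciart (−1.60, adjusted p = 0.0338) with 11 libraries. With 11 libraries Hlf was also higher in YB than in YS (1.11, adjusted p = 0.0233). Bhlhe41 was lower after burn over both ages (−0.75, adjusted p = 0.0357). Of 5 genes of the activator phase none was called with 12 libraries, and with 11 Arntl was lower in YB than in YS (−1.82, adjusted p = 0.0440) and, with Cry1, lower in YB than in AB (−1.65 and −0.90, adjusted p = 0.00748 and 0.00389). Among 10 immediate early genes, 9 of them tested, Atf3 was lower in YB than in AB (−1.38, adjusted p = 0.0316) and Ier2 was higher (0.76, adjusted p = 0.0372). The part of harvest time in the values of the 10 genes was not tested.

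Markers of other cells moved with some of the same contrasts. All 8 macrophage markers were positive in AB against AS, none of them called, and their summed level was 337 to 467 CPM in AB and 281 to 341 CPM in AS. In YB it was 471 to 800 CPM, above AB, and 276 to 375 CPM in YS. In YB against AB 5 of the 8 were called higher with 12 libraries (Adgre1, C1qa, C1qb, Lyz2 and Mrc1), as were 742 of all 12408 genes. Over both ages 2 rose after burn, as did 62 of all genes. These 2 were Cd68, by 1.11 (edgeR adjusted p = 0.0201), and C1qb, by 0.76 (adjusted p = 0.0434). Of 8 endothelial markers 4 were called higher in YB than in AB with 12 libraries, and none in YS than in AS. They summed to 500 to 683 CPM in YB and 385 to 405 in AB, and to 453 to 610 in YS and 399 to 440 in AS. Of 8 tendon markers 4 were called lower after burn over both ages, as were 27 of all 12408 genes. All 8 fibroblast markers were tested, and 4 of them were called higher in YB than in AB. In YS against AS 2 were called higher, as were 238 of all 12408 genes. The fibroblast sum was 6011 to 7726 CPM in YB against 2696 to 3573 CPM in AB. It was 6208 to 6583 CPM in YS against 2646 to 3525 CPM in AS, so the sham groups differed in the same direction. Markers of fat cells, which express Hsd11b1, summed to 69.2 to 147 CPM in YB and 62.4 to 343 CPM in AB, so that these ranges overlapped. All 6 markers tested had a negative log2 fold change in YB against AB, with a median of −0.77, and none was called. Of 8 neutrophil markers 2 were tested, and S100a9 rose after burn over both ages by 2.04 (edgeR adjusted p = 0.0168). The 8 summed to 6.87 to 15.4 CPM in AB and 9.61 to 27.4 CPM in YB, above the 2.33 to 5.79 CPM of AS and 2.03 to 4.14 CPM of YS, while the neutrophil marker Ly6g had 0 counts in every library. Of 8 muscle fibre markers 7 were negative in YB against YS, and none was called. At an unadjusted p under 0.05, 5 of them were lower, as were 1209 of all 12408 genes. The part of any of these cell types in the values of the 10 genes was not tested.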

How the data were processed

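The authors aligned poly-A reads to GRCm38 with STAR (2.7.5c, per the submitters' processing notes) and its GeneCounts option gave reads per Gencode M25 gene. The deposited values are raw counts per gene, and no source used here names the strand. Small RNA counts of the same mice were not used here. Positions and exon lengths came from Gencode M21 on GRCm38, and start sites from RefSeq.

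In R 4.3.3 with edgeR 4.0.16, counts were scaled by TMM and filtered by filterByExpr (minimum count 10, minimum total 15), which kept 12408 genes in 12 libraries and 12651 in 11. Quasi-likelihood F tests, two-sided, used 1 mean per group, or age and burn for burn over both ages, with Benjamini-Hochberg adjustment over all genes tested. The threshold was an adjusted p under 0.05. DESeq2 1.42.0, other scalings, no filter, only the groups compared, a replicate block and each library left out were alternatives.

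The 10 genes and all lists were chosen with earlier results of these data known. All 10 genes are named throughout. Genes of the pathway lists could be named where called, at most 4 per list and comparison by size of change, and not every such gene is named. Fbxo32, Nr3c2, Pik3r1 and the cell markers were named after their values were seen. The mice were separate animals. Figures were drawn with matplotlib 3.10.9.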

Additional observations from a re-analysis of the deposited data

How the results depend on the processing

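The calls among the 10 genes depended on the young burn libraries and on the settings. The number called over both ages, 0 in the reported fit, was 2 by DESeq2, 4 without the filter, 3 by DESeq2 without young burn replicate 2, 4 without that library and young sham replicate 1, and 0 to 1 over single libraries left out. In AB against AS it was 0 as reported, and 1 by DESeq2, 3 without the filter, 3 with only these groups fitted, 2 by DESeq2 without young burn replicate 2, 3 without both libraries named above and 0 to 2 over single libraries left out. In YB against YS it was 0, and 1 with library size alone, 2 without the filter, 1 without both libraries and 0 to 1 over single libraries. The interaction gave 0, and 1 by DESeq2 without young burn replicate 2. YS against AS gave 0, and 2 without the filter, 3 without both libraries and 0 to 1 over single libraries. YB against AB gave 3, and 7 without the filter, 1 with only these groups fitted and 1 to 6 over single libraries. The cause was not tested. Settings without young burn replicate 2 by DESeq2, and without both libraries, were chosen after seeing the data. Young sham replicate 1 held the highest YS value of all 8 induced genes, so leaving it out lowers their YS means. The counts without both libraries are therefore not independent support. With the replicate number as a block, 2 genes, Zbtb16 and Klf9, were called in YB against AB, Hsd11b1 had an adjusted p of 0.0522, and no other call of the 10 changed. Deviations of same-numbered mice correlated at between −0.197 and 0.153, so a shared number was not read as a pair. With library size alone the median log2 fold change of all genes was 0.25 in YB against YS, 0.27 in the interaction, 0.12 over both ages, −0.13 in YS against AS and 0.12 in YB against AB, and with TMM it lay between 0.00046 and 0.017.

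Of 1164 values of single genes under the alternatives, 1059 kept their direction and side of the threshold, and 43 changed sign, all of them uncalled values under both settings. Over single libraries left out, or both libraries named above, burn over both ages ran from −0.070 to 0.052 for Hsd11b1 and from −0.21 to 0.051 for Klf9, and AB against AS from −0.24 to 0.27 for Sgk1. YB against YS ran from −0.055 to 0.90 for Fkbp5, −0.00088 to 0.54 for Tsc22d3 and −0.096 to 0.45 for Zbtb16. The interaction ran from −0.098 to 0.30 for Nr3c1, −0.86 to 0.17 for Fkbp5, −0.40 to 0.14 for Tsc22d3, −0.71 to 0.068 for Sgk1 and −0.085 to 0.48 for Errfi1. YS against AS ran from −0.025 to 0.043 for Nr3c1, −0.052 to 0.31 for Klf9, −0.50 to 0.010 for Sgk1, −0.46 to 0.31 for Cebpd and −0.24 to 0.15 for Errfi1. YB against AB ran from −0.081 to 0.31 for Nr3c1 and −0.082 to 0.43 for Errfi1. With library size alone, the sign changed over both ages for Klf9 (0.0058), in YB against YS for Hsd11b1 (0.081) and in YS against AS for Nr3c1 (−0.12), Klf9 (−0.012), Cebpd (−0.12) and Errfi1 (−0.13). Without the filter it changed in YS against AS for Nr3c1 (−8.3e-05) and Errfi1 (−0.00085). By DESeq2 without young burn replicate 2 it changed over both ages for Hsd11b1 (−0.0056) and in YB against AB for Errfi1 (−0.090).

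Each group held 3 mice, and each gene had at least 54 reads in each library. A gene that did not pass is not shown to be alike between groups.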
